A study of Mus musculus with 2 samples.

Results

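The dual-specificity MAP kinase phosphatases were followed as 9 genes, Dusp1, Dusp2, Dusp4, Dusp5, Dusp7, Dusp8, Dusp10, Dusp14 and Dusp16, taken by symbol from the deposited RPKM tables (read numbers divided by gene length and by the total of the library). All 9 of these genes had reads in both libraries, as had 13102 of the 15113 genes listed in either table. RNA had been sequenced from sorted lung epithelial cells of mice, in 1 tumour-bearing library and 1 normal library. Mice of both groups were C57BL/6 aged 6 to 8 weeks. In the tumour-bearing group, 1000000 LLC cells carrying luciferase, from the Lewis lung carcinoma line of mouse origin, had been injected under the skin of the back, and the normal group was wild-type mice without a tumour. Cells of both groups had been sorted as lacking CD45, the leukocyte protein that Ptprc encodes, and as carrying Sftpc, the surfactant protein of alveolar type 2 (AT2) cells. Whether a library pooled several mice is not stated in the labels.

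These phosphatases remove phosphate from both the threonine and the tyrosine of the activation loop of MAP kinases, and so switch the ERK, JNK and p38 kinases off. Most carry a docking region that binds the kinase beside the catalytic domain, and they differ in which kinase they prefer and where in the cell they work. Several are transcribed in response to the kinases they inactivate, which makes them a negative feedback. In AT2 cells, ERK signalling downstream of growth factor receptors is part of what keeps the cells in their surfactant-producing state.

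Reads recovered from the RPKM values put the library totals at 5387114 in the tumour-bearing and 5335352 in the normal library. With 1 library per group there was no replicate spread, so no p-value is given, and each bracketed interval beside a fold is an exact 95% interval of the ratio of reads that covers counting error only. Sftpc was the most abundant gene of both libraries, at 54968 RPKM in the tumour-bearing and 94903 RPKM in the normal library, and Ptprc had 2 and 12 reads. Of 10 AT2 markers, Sftpc among them, 1 was higher and 1 lower by 2-fold or more, and 8 lay within 2-fold. Sftpd was the one higher, just past 2-fold at 7410 RPKM in the tumour-bearing and 3633 RPKM in the normal library. Etv5 was the one lower, at 162 and 341 RPKM. Of all genes that reached 1 RPKM in either library, 9.38% were higher and 6.53% lower by 2-fold or more. Markers of other lung cell types also differed. All 8 markers of alveolar type 1 cells, the thin gas-exchange cells, were higher in the tumour-bearing library, 5 of them by 2-fold or more, with summed levels of 2500 against 1577 RPKM. Of 6 club and ciliated cell markers, 1 was at least 2-fold lower and 5 lay within 2-fold, and the club cell gene Scgb1a1 was abundant in both libraries, at 35116 and 30142 RPKM. All 8 fibroblast markers and 6 of 8 endothelial markers were at least 2-fold higher in the tumour-bearing library, with summed levels of 802 against 146 RPKM and 115 against 25.6 RPKM. Of 12 leukocyte markers, 2 were higher and 2 lower by 2-fold or more, Cd3e, Itgam and S100a8 were listed in neither table, and the sums were 1386 and 2828 RPKM, nearly all from the lysozyme gene Lyz1, which AT2 cells can also express. The part of such cells in the phosphatase values was not tested. In bulk RNA, fewer cells of a type and less RNA per cell cannot be told apart.

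The family was mixed, with Dusp7 higher and Dusp5 lower in the tumour-bearing library by the clearest margins. On the log2(RPKM + 1) scale, 2 of the 9 genes (Dusp7 and Dusp2) were higher by 2-fold or more, 1 (Dusp5) was lower by 2-fold or more and 6 lay within 2-fold. Among the 12288 genes compared, those that reached 1 RPKM in either library, 9.38% passed 2-fold upward and 6.53% passed it downward. The median log2 ratio of the 9 genes was 0.07, against 0.06 for all genes compared. Both changed sign when scaled to the upper quartile, to -0.01 for the 9 genes and -0.03 for all genes. By counting error alone, the interval of the ratio lay wholly above 1 for 3 members, wholly below 1 for 4 and held 1 for 2. Over all genes compared with recovered reads, 33.1% had an interval wholly above 1 and 26.4% wholly below 1, so an interval that leaves out 1 was common in these libraries.

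**Figure D1:**
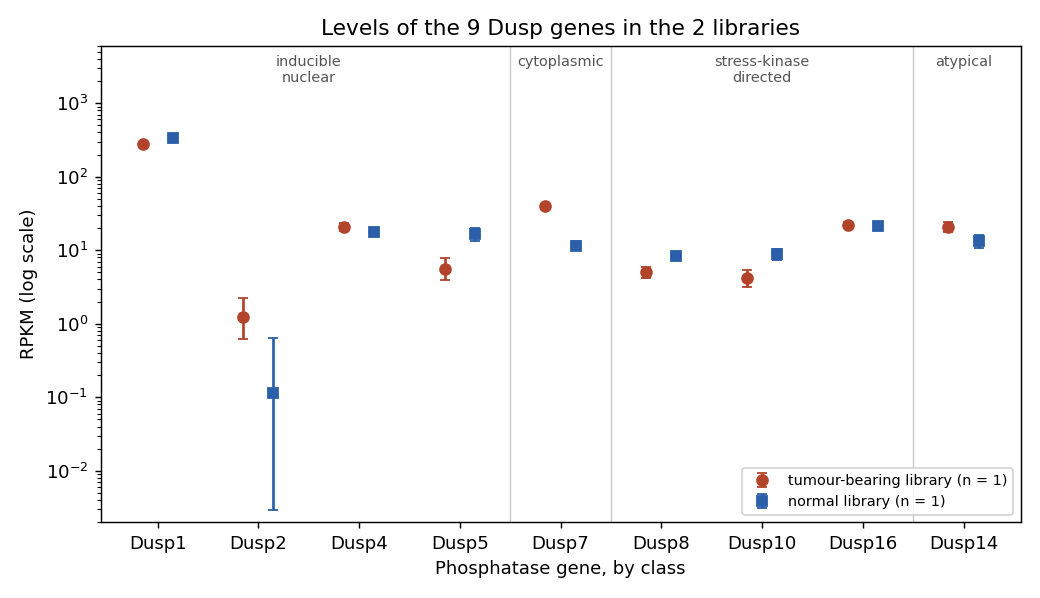
Level of each phosphatase gene in RPKM (log axis) in the tumour-bearing library (circles) and the normal library (squares), 1 library each, with exact Poisson 95% intervals of the reads as bars. Dusp1 stands above the other genes in both libraries at 275 and 337 RPKM, and Dusp7 and Dusp5 are separated between the libraries in opposite directions.

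Dusp1 set the level of the family. It made up 69.7% of the summed RPKM of the 9 genes in the tumour-bearing library and 77.6% in the normal library. The sum itself was 395 RPKM in the tumour-bearing and 434 RPKM in the normal library. Without Dusp1 the direction was the other way, with 120 RPKM in the tumour-bearing and 97.3 RPKM in the normal library, or 1975 and 1552 reads, a ratio of reads of 1.26 (1.18 to 1.35). That difference was carried by Dusp7. Without both Dusp1 and Dusp7, the other 7 genes summed to 79.9 RPKM in the tumour-bearing and 85.8 RPKM in the normal library, and their ratio of reads, 0.941, had an interval of 0.871 to 1.02, which holds 1.

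The inducible nuclear phosphatases are Dusp1, Dusp2, Dusp4 and Dusp5, which act on kinases that have entered the nucleus. Dusp1 (GeneID 19252, chromosome 17, 26505591 to 26508472 on mm10), an immediate early gene that also responds to glucocorticoids and acts on p38, JNK and ERK, was at 275 RPKM in the tumour-bearing library and 337 RPKM in the normal library. Its level was thus a little lower in the tumour-bearing library, 1.22-fold (1.16 to 1.28), from 2896 and 3505 reads. It ranked 200 among all genes of the tumour-bearing library and 145 in the normal library. Of the genes compared, 28.3% had a lower log2 ratio than Dusp1.

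Dusp5 (GeneID 240672, chromosome 19, 53529145 to 53541809), which is nuclear and specific for the ERK kinases, was at 5.63 RPKM in the tumour-bearing library and 16.4 RPKM in the normal library. The normal library held the higher level, and the difference was 2.91-fold (1.97 to 4.41) on 35 and 101 reads, a log2 ratio of -1.39. This was the lowest ratio of the family, and 2.57% of all genes compared had a lower one. The gene length implied by its values, 1155 bases, equalled the longest coding length of Dusp5 in GENCODE M21, whereas its transcript there has 2473 bases. The other 8 members had implied lengths longer than their coding lengths.

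Dusp4 (GeneID 319520, chromosome 8, 34807610 to 34819894), which acts on ERK and JNK in the nucleus, was at 20.7 RPKM in the tumour-bearing library and 17.8 RPKM in the normal library. The ratio of 1.17 had an interval of 0.975 to 1.4, which holds 1. Dusp2 (GeneID 13537, chromosome 2, 127336159 to 127338377), best known from activated leukocytes, was the least abundant member, at 1.25 RPKM in the tumour-bearing library and 0.115 RPKM in the normal library. Those values rested on 11 reads and 1 read, so its ratio of 10.9 had an interval of 1.58 to 469. Its log2 ratio of 1.01 was just past the 2-fold mark, and 7 of the alternatives in the closing section took it below that mark or left the gene out. The leukocyte markers at least 2-fold higher in the tumour-bearing library were Cd68, with 171 and 42 reads, and C1qb, with 32 and 0. Others of that list ran the other way, with 2 and 12 reads of Ptprc, 0 and 5 reads of S100a9, and Lyz1 at 1339 and 2813 RPKM. The part of leukocytes in the Dusp2 reads was not tested.

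Dusp7 (GeneID 235584, chromosome 9, 106368560 to 106375724) is the cytoplasmic member, directed at the ERK kinases. It was at 39.6 RPKM in the tumour-bearing library and 11.5 RPKM in the normal library, from 689 and 198 reads. The tumour-bearing library held the higher level, 3.45-fold (2.94 to 4.06), with a log2 ratio of 1.70. Dusp7 was the only member whose counting interval lay wholly past 2-fold in either direction, as it did upward for 6.24% and downward for 3.68% of the genes compared with recovered reads. Of all genes compared, 2.73% had a higher log2 ratio.

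**Figure D2:**
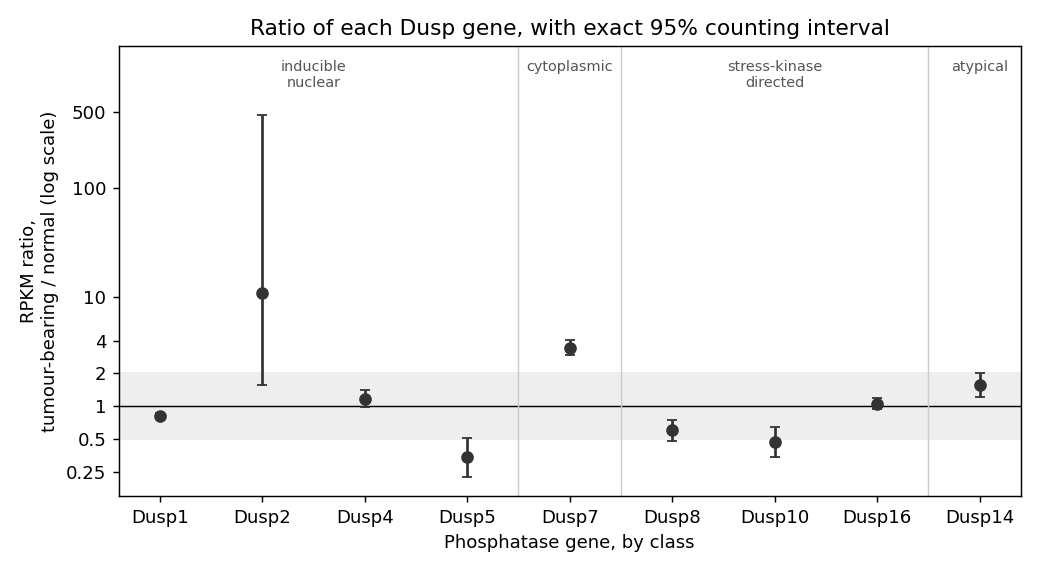
Ratio of RPKM, tumour-bearing over normal library (log axis), for each phosphatase gene by class, with exact 95% counting intervals as bars and the range within 2-fold shaded. Dusp7 lies wholly above the shaded range at 3.45, Dusp5 lies below it at 0.343 with an interval that reaches just inside, and the interval of Dusp2 runs from 1.58 to 469.

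The phosphatases directed at the stress kinases JNK and p38 are Dusp8, Dusp10 and Dusp16. Dusp10 (GeneID 63953, chromosome 1, 184034381 to 184075636) was at 4.18 RPKM in the tumour-bearing library and 8.85 RPKM in the normal library. It was lower in the tumour-bearing library by a direct ratio of 2.12-fold (1.55 to 2.92), from 61 and 128 reads, but its log2 ratio on the RPKM + 1 scale, -0.93, was inside 2-fold. Dusp8 (GeneID 18218, chromosome 7, 142079487 to 142095907) was at 5.06 RPKM in the tumour-bearing library and 8.37 RPKM in the normal library, 1.65-fold lower (1.32 to 2.07) from 132 and 216 reads.

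Dusp16 (GeneID 70686, chromosome 6, 134715468 to 134807063), the most abundant of these, was at 22.2 RPKM in the tumour-bearing library and 21.1 RPKM in the normal library. Its ratio of 1.06 had an interval of 0.941 to 1.18, from 614 and 576 reads, so a difference beyond that range was not seen at this depth. The 3 genes together had 807 reads in the tumour-bearing and 920 in the normal library, a ratio of reads of 0.869 (0.789 to 0.956). Dusp16 was 5.33 times the level of Dusp10 in the tumour-bearing library and 2.38 times in the normal library.

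Dusp14 (GeneID 56405, chromosome 11, 84048033 to 84069256), a small atypical phosphatase without the docking region of the others, was at 20.8 RPKM in the tumour-bearing library and 13.2 RPKM in the normal library. The tumour-bearing library held more, 1.57-fold (1.22 to 2.04), from 162 and 102 reads. With Dusp2 and Dusp7 it was one of the 3 members whose interval lay above 1.

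The order of the levels below Dusp1 differed between the libraries. In the tumour-bearing library Dusp7 came next, 1.78 times the level of Dusp16 (1.6 to 1.99), and was followed by Dusp16, Dusp14 and Dusp4, whose neighbours in the order did not differ beyond counting error. Dusp5, Dusp8 and Dusp10 formed a lower step there, also without a difference between neighbours, and Dusp2 came last. In the normal library Dusp16 stood second, 1.19 times the level of Dusp4 (1.02 to 1.39). Dusp4, Dusp5, Dusp14 and Dusp7 followed it with each neighbouring interval holding 1, then Dusp10 and Dusp8, which did not differ from each other beyond counting error. Dusp7 thus took rank 2 in the tumour-bearing library and rank 6 in the normal library. The level of Dusp7 was 7.05 times that of Dusp5 in the tumour-bearing library and 0.702 times in the normal library, with Dusp5 scaled to 1155 bases in both. The place of Dusp5 in either order, and its comparison with its neighbours, rests on that scaling. Orders with Dusp5 scaled to its transcript of 2473 bases were not computed.

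**Figure D3:**
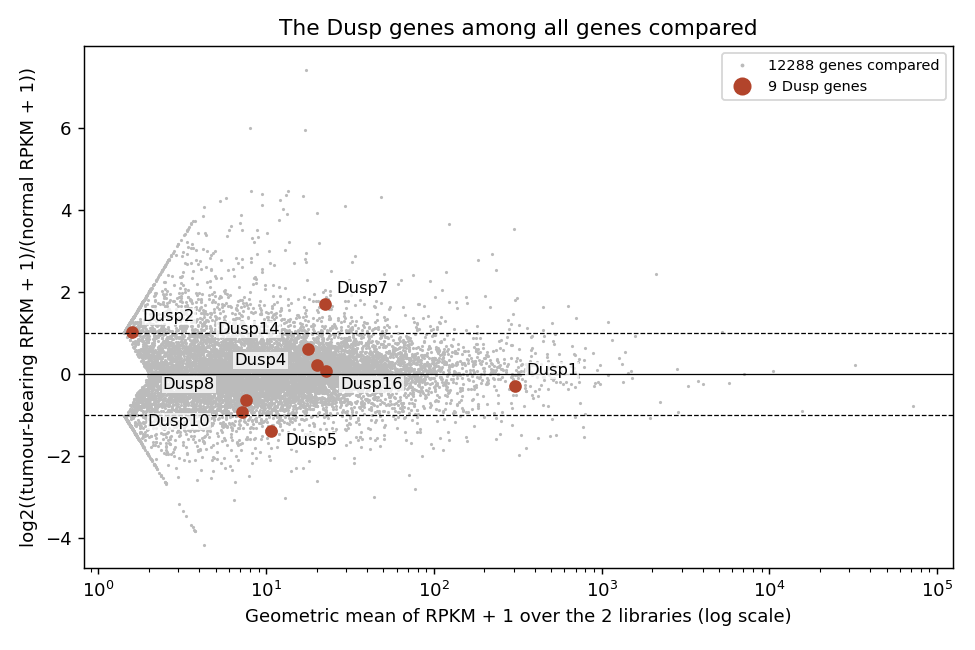
The log2 ratio of RPKM + 1, tumour-bearing over normal library, against the geometric mean of RPKM + 1 over both libraries (log axis) for 12288 genes compared (grey) and the 9 phosphatase genes (labelled). Dashed lines mark 2-fold. Dusp7 at 1.70 and Dusp5 at -1.39 lie outside the lines, Dusp2 lies on the edge at 1.01, where few reads limit the value, and the others lie inside.

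The promoter windows of 4 members are shown because they carry the members at the extremes of the ratio (Dusp7 and Dusp5), the most abundant one (Dusp1), and the one with a repeated cyclic AMP response element (Dusp8). Each window runs from 250 bases before to 50 bases after a transcription start, on the sense strand, from RefSeq on GRCm38.p6, the assembly that mm10 denotes, and 8 of the 9 members were matched. Capitals mark a cyclic AMP response element (TGACGTCA), an E-box (CACGTG) or a CArG box, the site of serum response factor. The windows are chr17:26508423-26508722 on the minus strand for Dusp1, chr19:53528895-53529194 on the plus strand for Dusp5, chr9:106368382-106368681 on the plus strand for Dusp7 and chr7:142095235-142095534 on the minus strand for Dusp8.
Dusp1: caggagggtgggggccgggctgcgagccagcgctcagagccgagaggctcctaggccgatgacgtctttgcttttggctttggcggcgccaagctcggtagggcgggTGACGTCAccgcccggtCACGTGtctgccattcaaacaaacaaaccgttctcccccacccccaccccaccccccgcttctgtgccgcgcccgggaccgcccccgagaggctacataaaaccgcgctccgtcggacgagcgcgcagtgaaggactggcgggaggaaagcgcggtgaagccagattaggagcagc
Dusp5: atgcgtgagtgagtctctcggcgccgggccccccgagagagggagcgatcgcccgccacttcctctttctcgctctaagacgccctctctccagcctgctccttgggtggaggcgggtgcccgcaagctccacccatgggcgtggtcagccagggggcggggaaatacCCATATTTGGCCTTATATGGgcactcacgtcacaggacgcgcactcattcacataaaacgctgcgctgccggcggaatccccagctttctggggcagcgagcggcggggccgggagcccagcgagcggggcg
Dusp7: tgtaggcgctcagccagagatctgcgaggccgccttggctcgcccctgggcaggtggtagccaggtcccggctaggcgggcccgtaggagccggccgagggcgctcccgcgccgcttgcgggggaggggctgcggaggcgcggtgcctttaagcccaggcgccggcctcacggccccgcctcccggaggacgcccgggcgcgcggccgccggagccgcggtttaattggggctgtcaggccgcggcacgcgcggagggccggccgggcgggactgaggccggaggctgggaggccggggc
Dusp8: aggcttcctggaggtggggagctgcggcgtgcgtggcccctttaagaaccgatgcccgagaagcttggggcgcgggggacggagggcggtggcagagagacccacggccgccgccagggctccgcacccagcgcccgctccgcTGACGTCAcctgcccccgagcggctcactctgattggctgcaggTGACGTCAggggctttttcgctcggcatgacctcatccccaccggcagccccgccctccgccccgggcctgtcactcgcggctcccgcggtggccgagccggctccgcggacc

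Both strands of each window were searched for the letters of 5 motifs. The cyclic AMP response element was in the windows of Dusp1, starting 143 bases before the start, and of Dusp8, starting 107 and 63 bases before it, and 1.79% of 32851 windows of all genes held it. The CArG box was in the window of Dusp5 alone among the 8 members, at 82 and 72 bases before the start and directly adjoining, and in 1.63% of all windows. The E-box was in those of Dusp1 and Dusp2 (7.15% of all windows), and the AP-1 site (TGANTCA) was in no member's window (7.81% of all windows). The GC box (GGGCGG) was in all 8 and in 35.7% of all windows. All 8 windows were rich in G and C, from 61% in Dusp10 to 78.7% in Dusp7, against a median of 52.7% over all windows. In the Dusp7 window none of the marked motifs was present.

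Among 17 other dual-specificity phosphatase genes, 13 were listed in either table and 12 reached 1 RPKM in either library. The median log2 ratio of the 12 was 0.02. On the log2(RPKM + 1) scale, none was at least 2-fold higher, against 9.38% of all genes compared. The number at least 2-fold lower was 3, against 6.53% of all genes compared. Those lower were Dusp12, at 0.788 RPKM in the tumour-bearing and 5.17 RPKM in the normal library, Dusp22, at 1.74 and 5.52 RPKM, and Dusp18, at 8.82 and 19.7 RPKM. The intervals were wide for the first of these, which was 6.56-fold lower (2.76 to 19) on 6 and 39 reads. With a pseudocount of 0.1, 1 of the 12 was higher and 4 were lower by 2-fold or more. With a pseudocount of 5 the numbers were 0 and 0. Dusp6, a cytoplasmic phosphatase directed at ERK like Dusp7, was at 28.8 RPKM in the tumour-bearing library and 36.1 RPKM in the normal library, 1.26-fold lower (1.1 to 1.43). The tumour-bearing level of Dusp7 was thus above that of Dusp6 and the normal level below it. Dusp3, an atypical phosphatase, was 1.51-fold higher (1.33 to 1.72).

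Other phosphatases that can act on MAP kinases were all within 2-fold. Of 6 genes compared, 4 had a log2 ratio above 0 and 2 below 0, with a median of 0.50, and 53.8% of all genes compared were above 0. Ppp2cb, a catalytic subunit gene of protein phosphatase 2A, was at 70.6 RPKM in the tumour-bearing library and 38.1 RPKM in the normal library, and Ppm1a, a magnesium-dependent phosphatase gene, was at 44.8 and 24.3 RPKM.

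The MAP kinase genes were within 2-fold about as often as genes in general, 9 of 11 against 84.1% of all genes compared. Of the 11 MAP kinase genes compared, 2 were higher by 2-fold or more and none was lower by that much, with a median log2 ratio of -0.01. Mapk13, which encodes a p38 kinase, was at 75.5 RPKM in the tumour-bearing library and 26.7 RPKM in the normal library, 2.83-fold higher (2.41 to 3.34). The second was the p38 gene Mapk11, named after its values were seen, with 16 reads in the tumour-bearing library and 0 in the normal library. Of 6 MAP kinase kinase genes, all lay within 2-fold on the log2(RPKM + 1) scale. Map2k1, which activates ERK, was nearest to that mark at 55.8 RPKM in the tumour-bearing library and 27.8 RPKM in the normal library. Its direct ratio, 2.01 (1.77 to 2.29), was just past 2-fold. Of 15 MAP kinase kinase kinase genes, 14 lay within 2-fold, and Map3k6, named after its values were seen, was 4.77-fold higher on 106 and 22 reads. Of 9 genes of MAP kinase-activated kinases, all lay within 2-fold, with a median of 0.32. Mapkapk2, a substrate kinase of p38, was at 173 RPKM in the tumour-bearing library and 96 RPKM in the normal library.

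Immediate early genes, many of them transcribed downstream of these kinases, were lower in the tumour-bearing library. All 19 immediate early and AP-1 genes had a log2 ratio below 0, 11 of them at least 2-fold lower, with a median of -1.31. Of all genes compared, 6.53% were at least 2-fold lower. Egr2, an early transcription factor gene, was at 1.62 RPKM in the tumour-bearing library and 15.4 RPKM in the normal library, and Nr4a1, a nuclear receptor gene of the same kind, was at 69.5 and 215 RPKM. The log2 ratios of Dusp5 (-1.39) and Dusp1 (-0.29) lay within the range of this list, which ran from -2.64 to -0.12, whereas those of Dusp4 (0.21) and Dusp2 (1.01) lay above it. Of 10 ERK feedback and ERK-induced genes, 1 was higher and 1 lower by 2-fold or more, with a median of -0.36. Over all genes compared, 9.38% were higher and 6.53% lower by that much. Among the 10 genes, the number lower was 2 under each other scaling, with centring and with a pseudocount of 0.1. The number higher was 2 with a pseudocount of 0.1 and 0 with a pseudocount of 5 or a filter at 5 RPKM. The one lower with values as deposited was the ETS transcription factor gene Etv5, at 162 RPKM in the tumour-bearing library and 341 RPKM in the normal library. The one higher with those values, Etv4, was named after its values were seen and had 32 reads and 1 read. Spry1, an inhibitor of receptor signalling to ERK, was 1.97-fold lower (1.8 to 2.16), and Phlda1 was 1.79-fold lower (1.67 to 1.93). Spred1, of the same list, was 1.63-fold higher (1.49 to 1.79). Spry4, named after its values were seen, had a log2 ratio of 0.98 and a direct ratio of 2.61 (1.78 to 3.89) on 100 and 38 reads. Of the 10 genes, 3 had a log2 ratio above 0 and 7 below 0.

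Glucocorticoid-induced genes were set beside Dusp1 because it belongs to that class as well. Of 8 genes, 3 were higher and 1 lower by 2-fold or more, with a median of 0.83. Over all genes compared, 9.38% were higher and 6.53% lower by that much. Fkbp5, a co-chaperone of steroid receptors, was at 36.9 RPKM in the tumour-bearing library and 0.724 RPKM in the normal library. Zbtb16, a transcription factor gene, was at 28.5 and 2.68 RPKM, and the clock gene Per1 at 74 and 34.5 RPKM. The one lower was Nfkbia, an inhibitor of NF-kB, at 147 RPKM in the tumour-bearing library and 411 RPKM in the normal library. The log2 ratio of Dusp1, -0.29, lay below the median of the glucocorticoid-induced list and above the median of the immediate early list.

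**Figure D4:**
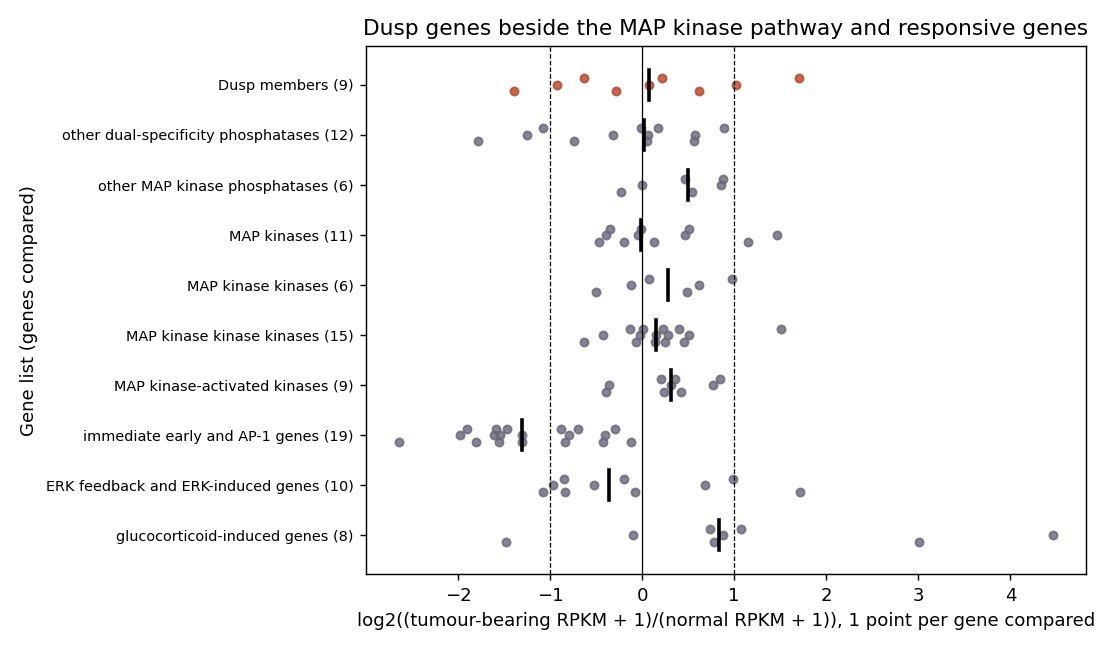
Log2 ratio of RPKM + 1, tumour-bearing over normal library, for each compared gene of the phosphatase family and of 9 other lists, with the median of each list as a black bar and dashed lines at 2-fold. The 9 phosphatase genes spread from -1.39 to 1.70 around a median of 0.07, whereas all 19 immediate early and AP-1 genes lie below 0.

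Exons of 3 members overlap genes on the opposite strand in GENCODE M21, and the labels do not state a strand setting, so reads from the shared bases cannot be told apart. Dusp1 shares 11 exon bases with Ergic1, which was at 25.7 RPKM in the tumour-bearing library and 13.9 RPKM in the normal library. Dusp8 shares 66 with Gm32786 and Dusp5 shares 547 with AC137853.2, neither of which is listed in the tables.

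**Figure D5:**
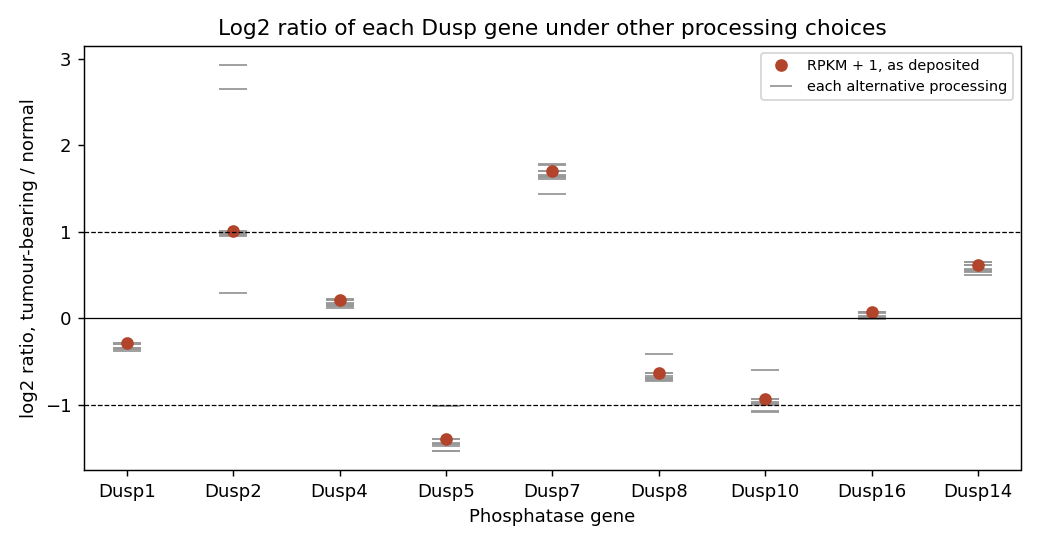
Log2 ratio, tumour-bearing over normal library, of each phosphatase gene as deposited with 1 RPKM added (circles) and under each other scaling, pseudocount, filter or read-based value (bars), with dashed lines at 2-fold. Dusp7 and Dusp5 keep their side of the lines throughout, with Dusp5 at -1.01 at the nearest, whereas Dusp2 ranges from 0.29 to 2.92.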

How the data were processed

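RNA from 1 library per group (tumour-bearing and normal) was compared. Per the labels' protocols, poly(A) RNA was captured on oligo(dT) beads and fragmented, and random-primed cDNA was amplified by PCR. Per the submitters' processing notes, Trimmomatic and mm10 were used. No aligner, counter, annotation or strand setting is given in the sources used here. The authors deposited RPKM per gene, per the file headers.

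A gene missing from a table counted as 0 RPKM. The measure was log2((tumour-bearing RPKM + 1)/(normal RPKM + 1)) for the 12288 genes that reached 1 RPKM in either library, with a 2-fold size rule. No test of the conditions was possible with 1 library each. Folds are given as direct RPKM ratios. Because rows run in descending order of reads and gene lengths are whole, whole reads were recovered for 15049 of 15113 genes (99.6%), with lengths whole within 0.02 base and 0 row pairs out of order, although row order guided the recovery. The totals are the largest at which the least-read genes have whole lengths, and are estimates, not values stated by the authors. Of the implied lengths, 12.8% equal a GENCODE M21 transcript of the same gene. Intervals are exact conditional binomial (Clopper-Pearson) or exact Poisson at 95%. Reads amplified by PCR are not independent molecules, so the intervals cover counting error only.

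The recovery was tested on simulated data of 14971 genes, where 99.95% were recovered, 99.97% of those correctly. In that simulation of the tumour-bearing against the normal library, 200 genes were changed. The 2-fold rule found 99% of those changed 3-fold and 100% of those changed 4-fold, and called 0.403% of unchanged genes. The changed genes were drawn only from the better-read genes, so these rates do not cover genes with few reads, such as Dusp2. The simulated noise was counting error alone, without any spread between mice or libraries, so 0.403% is not an error rate for these data. GeneIDs were matched to RefSeq symbols for 15080 genes. The members and lists were chosen with earlier results of these data known. All 9 members were named, and from each other list up to 4 genes with the largest absolute log2 ratio among those reaching 5 RPKM, with Dusp6, Sftpc and Ptprc at any value. Scgb1a1, S100a9, Mapk11, Map3k6, Etv4 and Spry4 were named outside that rule, as were Cd3e, Itgam and S100a8, which were listed in neither table. Alternatives were 4 scalings, centring, pseudocounts of 0.1 and 5, no filter, a filter at 5 RPKM, and rules of 1.5-fold and 4-fold. Read-based ratios with 0.5 read added, intervals wholly past 2-fold, and the median without Dusp2 were added after seeing the data. Python 3.11.15, numpy 2.4.6, pandas 2.3.3 and scipy 1.17.1 were used.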

Additional observations from a re-analysis of the deposited data

How the results depend on the processing

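No paired analysis was possible because each group holds 1 library. The tumour-bearing Dusp7 was at least 2-fold higher and Dusp5 at least 2-fold lower under every alternative scaling, pseudocount and filter, with log2 ratios of 1.44 to 1.78 and -1.53 to -1.01. For the other members these ranged from 0.29 to 2.92 for Dusp2, from -1.08 to -0.59 for Dusp10, from -0.72 to -0.41 for Dusp8, from 0.50 to 0.65 for Dusp14, from -0.38 to -0.28 for Dusp1, from 0.13 to 0.22 for Dusp4 and from -0.01 to 0.08 for Dusp16. The median of the members was -0.11 with a filter at 5 RPKM and also without Dusp2, and -0.01 with upper-quartile scaling. The number of members at least 2-fold higher was 1 (Dusp7) with trimmed-mean scaling, upper-quartile scaling, equal sums without Sftpc, equal sums without Sftpc and other cell types' markers, centring, a pseudocount of 5, a filter at 5 RPKM or the whole counting interval past 2-fold. It was 0 at 4-fold. The number at least 2-fold lower was 2 (Dusp5 and Dusp10) with a pseudocount of 0.1 and on recovered reads, 3 at 1.5-fold, 0 at 4-fold and 0 with the whole counting interval past 2-fold. Of all 12288 genes compared, 1539 were higher and 1247 lower with a pseudocount of 0.1, against 1153 and 802 with values as deposited. On recovered reads the numbers were 1562 and 1274 of 12233 genes. Under the 4 scalings and centring, 990 to 1069 genes were higher and 849 to 911 lower, of 12233 to 12288 genes. With a pseudocount of 5 there were 370 higher and 190 lower, and with a filter at 5 RPKM 687 and 419 of 8645 genes. At 1.5-fold the numbers were 2383 and 1978, and at 4-fold 204 and 75. With the whole counting interval past 2-fold they were 763 and 450 of 12233 genes. Of 330 list counts under the alternatives, 278 stayed within 1.5 times, many of them counts of 0 that stayed 0. The cause of these shifts was not tested. Depth limited Dusp2 most, with 11 reads and 1 read.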
